A study of Homo sapiens with 31 samples.

Results

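The change of translation efficiency without EIF4A1 was measured in 8 of the 31 sequencing libraries of the series, chosen by assay, genotype and treatment. They were 2 ribosome profiling libraries each of naive and EIF4A1 knockout (KO) HEK293 T-REx cells given DMSO, and 2 RNA-seq libraries each of naive and EIF4A1 KO cells, for which the labels give no treatment. HEK293 T-REx is a human embryonic kidney line built for inducible transgenes. The labels do not say how many KO clones were used, whether both assays used the same cultures, or whether the libraries of a group came from separate cultures, so the p-values measure the spread between these libraries, which may be technical.

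eIF4A1 is an ATP-dependent RNA helicase of eIF4F, the complex that binds the mRNA cap, and unwinds structure in the 5' untranslated region ahead of the scanning small ribosomal subunit. eIF4A2 is its close paralog in the same complex. Ribosome profiling sequences the fragments (footprints) that ribosomes protect from nuclease, and the footprints of an mRNA relative to its RNA are its translation efficiency. A change of RNA that is offset at translation, so that footprints move less than RNA, is called buffering.

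Counts were deposited per Ensembl transcript, and no table at hand pairs these transcripts with genes, so no gene is named. The level of EIF4A1 and the markers of the cell line were therefore not checked, and the genotypes rest on the labels. Transcripts with equal counts in all 31 libraries were collapsed. An approximate rule then aimed at 1 transcript per locus. It compared only nearby rows, so a locus can still hold several, and it left 35499 transcripts. The footprint libraries held 5510071 and 6390350 counts on these in naive cells and 2748706 and 2515013 in EIF4A1 KO cells. The RNA-seq libraries held 19706862 to 21631521. All values are relative to the other transcripts of a library, and a shift common to all mRNAs leaves no trace in them.

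Efficiency fell for more transcripts than it rose for in EIF4A1 KO cells. With the quasi-likelihood test of edgeR and a threshold of 0.05 on the adjusted p, 2414 of 25458 transcripts changed in efficiency (9.48% of those tested), 953 higher (3.74%) and 1461 lower (5.74%). The median change was 0.50 among the rises and -0.64 among the falls, on the log2 scale. A change of more than 1 log2 unit was reached by 131 of the rises and 310 of the falls. The median standard error of the called changes was 0.14. The median change over all transcripts tested was -0.038, so the balance of rises and falls depends on the normalization. With the size factors of DESeq2 there were 1041 rises and 1322 falls. Requiring a mean of at least 50 counts in each assay gave 1097 rises and 1363 falls. The 953 rises lay in 730 stretches of the transcript list (a stretch joins called transcripts up to 10 distinct rows apart) and the 1461 falls in 995. By the same rule all 25458 tested transcripts join into 633, so this does not tell a shared locus from neighbouring genes.

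Single footprint libraries weighed on this count, and most on the rises. Leaving out any footprint library lowered the rises, while without naive DMSO replicate 1 the falls grew in number. Each such fit also tested more transcripts (27598 to 27691). Their median efficiency change lay between -0.065 and -0.11, against -0.038 with all libraries. Without EIF4A1 KO DMSO replicate 1, 1512 were called, of which 381 were higher. Without EIF4A1 KO DMSO replicate 2 or naive DMSO replicate 2, 520 and 485 were higher, and the falls came to 71.6% and 72% of the calls, against 60.5% with all libraries.

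The 2 largest well-supported changes in each direction are given by ID, as examples of the patterns described further on. They were picked among abundant transcripts, those at or above 5 in mean log2 CPM (CPM is the count scaled to the size of the library), whose efficiency lay apart between genotypes in every combination of libraries. ENST00000325680.12 had 34.3 and 32.1 CPM of RNA in naive cells and 31.9 and 31.2 in EIF4A1 KO cells. Its footprints stood at 33.6 and 29.8 CPM in naive and 96.1 and 84.0 in EIF4A1 KO cells. Both KO footprint libraries were far above both naive ones, while the RNA libraries differed by less than 4 CPM. Its efficiency rose by 1.59 (SE 0.14, edgeR adjusted p 1.08e-16), with an RNA change of -0.075 (SE 0.075, edgeR adjusted p 0.468).

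ENST00000323963.10 rose in both assays. Its RNA stood at 298 and 300.5 CPM in naive and 589 and 587 CPM in EIF4A1 KO cells. Its footprints stood at 157 and 130 CPM in naive and 722 and 692 CPM in EIF4A1 KO cells. Neither assay overlapped between genotypes, and the footprints rose further than the RNA did. The RNA change was 0.97 (SE 0.044), and the efficiency change on top of it 1.33 (SE 0.073, edgeR adjusted p 4.02e-28).

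The other transcripts lost footprints while their RNA rose. ENST00000234111.9, whose counts were shared in full with 1 further transcript, had 440 and 437 CPM of RNA in naive and 525 and 519 in EIF4A1 KO cells. Its footprints stood at 233 and 244 CPM in naive and 67.0 and 90.0 in EIF4A1 KO cells. Efficiency changed by -1.86 (SE 0.092, edgeR adjusted p 3.58e-31). ENST00000397238.7 had 75.7 and 81.0 CPM of RNA in naive and 110.2 and 106.5 in EIF4A1 KO cells. Its footprints stood at 29.0 and 32.1 CPM in naive and 11.05 and 15.3 in EIF4A1 KO cells, the latter from 30 and 38 counts. Efficiency changed by -1.70 (SE 0.19, edgeR adjusted p 1.15e-11). For both, the genotypes lay apart in each assay, in opposite directions. Reads shared with near-identical copies cannot be told apart for any of the 4.

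**Figure D1:**
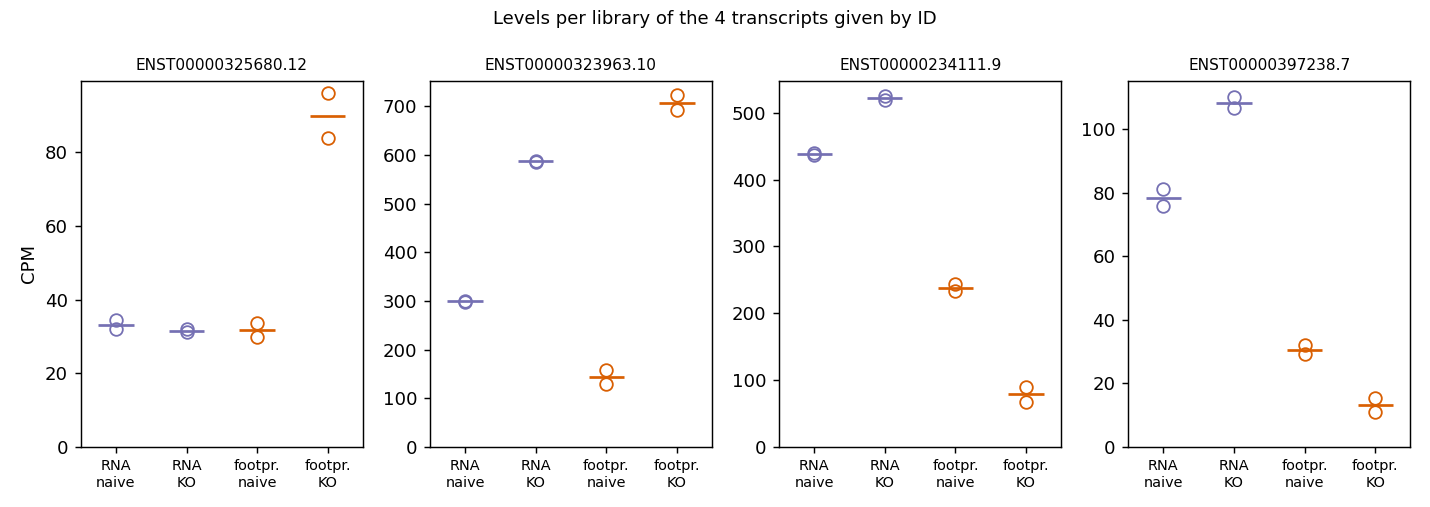
Levels of the 4 transcripts given by ID in CPM (y axis, linear, from 0), for RNA (purple) and footprints (orange) in naive and EIF4A1 KO cells. Each circle is a library and each bar the mean of 2. In the first panel only the KO footprints stand apart, in the second both assays rise, and in the remaining panels the RNA rises while the footprints fall.

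Each transcript was then placed by its calls for RNA, footprints and efficiency in the same fit. RNA was called for 9141 transcripts (35.9% of those tested), 4509 higher (17.7%) and 4632 lower (18.2%). Footprints were called for 4553 (17.9%), 2088 higher (8.2%) and 2465 lower (9.68%), and for 2731 without EIF4A1 KO DMSO replicate 1. A change of translation alone needed efficiency and footprints to move the same way with RNA not called. Buffering needed efficiency to be called against the RNA, and intensification needed it to be called with the RNA. As a class, buffering is thus wider than footprints moving less than RNA, since footprints could also be called against the RNA. The RNA libraries enter the efficiency with the opposite sign, so an error in the RNA favours buffering, and the class counts are a description with no test.

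By this wide definition, buffering was the largest of these classes. Of the 2414 transcripts with changed efficiency, 1187 (49.2%) were buffered, 856 (35.5%) changed in translation alone and 308 (12.8%) were intensified. The remaining 63 had neither RNA nor footprints called. The buffered class included 285 transcripts (11.8% of the 2414) with footprints called against the RNA, which is more than an offset. Those with footprints not called were 817 (33.8%), and those with footprints still following the RNA were 85 (3.52%). Without the 285, buffering and translation alone were of similar size. With RNA counts thinned to the depth of the footprints, RNA calls fell to 4209 and the order of the classes turned: 692 were buffered and 795 changed in translation alone.

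**Figure D2:**
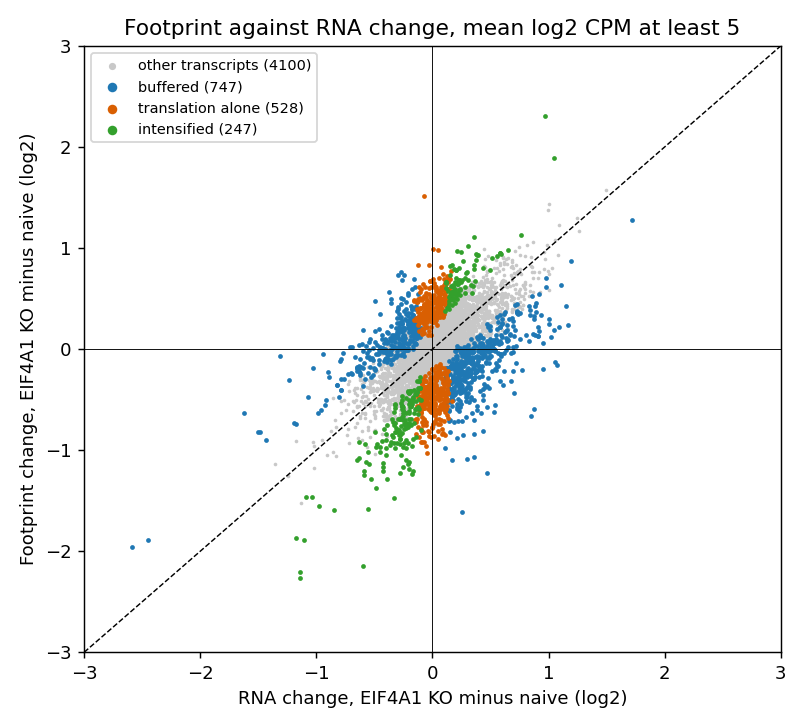
Change of footprints (y axis) against change of RNA (x axis), EIF4A1 KO minus naive, both log2, for the 5622 abundant transcripts. Points are transcripts, colours are classes, and the dashed line marks equal changes. Buffered transcripts (747) lie toward the horizontal axis or beyond it, translation alone (528) along the vertical axis, and intensified transcripts (247) beyond the dashed line, because the classes are defined by these values.

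Among the buffered transcripts, RNA was more often higher than lower. RNA was higher and efficiency lower for 724, with median changes of 0.41 in RNA, -0.65 in efficiency and -0.24 in footprints. RNA was lower and efficiency higher for 463, with medians of -0.40, 0.54 and 0.14. Abundance differed, with a median log2 CPM of 4.48 for all transcripts called higher in RNA and 3.65 for those called lower. The buffered share of transcripts tested rose with abundance, from 0.533% under a mean log2 CPM of 1 to 20% at 7 or more. So did all efficiency calls, from 1.15% to 41.3%, and translation alone, from 0.474% to 13.3%. Among efficiency calls, the buffered share stayed level: 49.2% at any abundance, 48.3% at 5 or more and 48.5% at 7 or more. With a mean of at least 50 counts in each assay, 669 were buffered with higher and 543 with lower RNA. Of the 1187, footprints were not called for 817 (buffered in full), still followed the RNA for 85 (in part), and were called against the RNA for 285 (overturned). Of the overturned transcripts, 194 had fewer footprints despite more RNA and 91 had more footprints despite less RNA. Leaving out a single footprint library lowered the buffered transcripts with lower RNA to 268 (naive DMSO replicate 2), 215 (EIF4A1 KO DMSO replicate 1) and 252 (EIF4A1 KO DMSO replicate 2). Without EIF4A1 KO DMSO replicate 1, 174 were overturned and 47 buffered in part, and the latter came to 41 without EIF4A1 KO DMSO replicate 2 and 56 without EIF4A1 KO RNA replicate 2.

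A transcript buffered in full illustrates the class. The leading one by size of change had 47.3 and 45.7 CPM of RNA in naive and 17.9 and 19.5 in EIF4A1 KO cells. Its footprints stood at 40.8 and 39.1 CPM in naive and 39.0 and 37.0 in EIF4A1 KO cells. RNA fell by 1.32 on the log2 scale (SE 0.078), while the footprint change of -0.068 (SE 0.13) was within its error. Its ratio of footprint to RNA CPM thus went from between 0.83 and 0.89 to between 1.90 and 2.18.

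Translation alone was split into 353 transcripts with higher and 503 with lower efficiency. The rises had a median footprint change of 0.48 with a median RNA change of -0.013, and the falls -0.63 with 0.022. A missing RNA call does not show that RNA was unchanged. For 778 of the 856, the 95% interval of the RNA change lay within 0.5 log2 units of 0. That margin is about as large as the median footprint change of the rises, so it leaves room for smaller RNA changes. Without EIF4A1 KO DMSO replicate 1 the class held 471 transcripts, 114 of them higher, and without naive DMSO replicate 2 it held 537, with 147 higher. The rises came to 186 without EIF4A1 KO DMSO replicate 2.

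The most abundant transcript of the translation-alone class with higher efficiency had 5204 and 5227 CPM of footprints in naive and 6678 and 6295 in EIF4A1 KO cells. Its RNA stood at 1888 and 1972 CPM in naive and 1931 and 1950 in EIF4A1 KO cells. The KO footprints were above both naive libraries, and the RNA ranges overlapped. Its efficiency change was 0.31 (SE 0.051, edgeR adjusted p 2.98e-06). The most abundant of the class with lower efficiency went from 8149 and 8424 CPM of footprints to 7453 and 7150, with an efficiency change of -0.25 (SE 0.046, edgeR adjusted p 2.73e-05).

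Intensified transcripts had higher RNA and efficiency in 110 cases and lower in 198. Their median footprint changes were 0.69 and -0.85, made of 0.23 and -0.28 in RNA and 0.44 and -0.52 in efficiency. The leading transcript among the falls had 165 and 170 CPM of RNA in naive and 109 and 112 in EIF4A1 KO cells. Its footprints stood at 35.1 and 31.5 CPM in naive and 7.73 and 7.23 in EIF4A1 KO cells, the latter from 21 and 18 counts. Single libraries moved these counts too. Without EIF4A1 KO DMSO replicate 1 the rises came to 39, and without either EIF4A1 KO RNA library they came to 55 and the falls to 115 and 117. Without EIF4A1 KO DMSO replicate 2, naive DMSO replicate 2 or naive RNA replicate 1, the rises came to 63, 55 and 70.

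Most RNA changes carried no efficiency call. Of the 9141 transcripts with changed RNA, 2132 (23.3%) were forwarded, with RNA and footprints called the same way and efficiency not called. For 5514 (60.3%) RNA alone was called. Their median log2 CPM was 3.10, against 2.83 for all transcripts tested and 5.22 for the forwarded ones. Their footprints had the sign of the RNA change in 4166 cases (75.6%), as did those of 16041 of all 25458 tested. At this depth they could not be assigned to buffering or forwarding. Among the 804 with changed RNA that reached 7 or more in mean log2 CPM, the share with RNA alone called was 18.9%, while 32.1% were buffered, 36.9% forwarded and 12.1% intensified.

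To measure buffering without using the same RNA libraries on both sides, transcripts were binned by the RNA change of 1 replicate number. The RNA change of the other number was then set beside the footprint change, over the 5622 abundant transcripts. The median footprint change was smaller than the median RNA change in every bin but 1. Below -1 in RNA replicate 2, the 25 transcripts had medians of -1.13 in RNA and -1.15 in footprints. Single transcripts varied. With bins from RNA replicate 1, footprints moved less than RNA for 254 of 339 transcripts from 0.5 to 1. From 0 to 0.25 they did so for 553 of 1852. In the bin of 0.5 to 1 in RNA replicate 1, 339 transcripts had a median RNA change of 0.63 in replicate 2 and a median footprint change of 0.43. In the bin of -1 to -0.5, 164 transcripts had -0.60 in RNA and -0.40 in footprints. With the replicates exchanged, the same bins gave 0.60 against 0.40 (363 transcripts) and -0.58 against -0.45 (175 transcripts). Across all 5622, the slope of the footprint change on the RNA change, taken from separate RNA libraries, was 67.2% with replicate 1 as the reference and 76.9% with replicate 2, with a mean of 72.1%. Transcripts are not independent replicates, and all libraries compare the same lines, so no p-value is given.

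**Figure D3:**
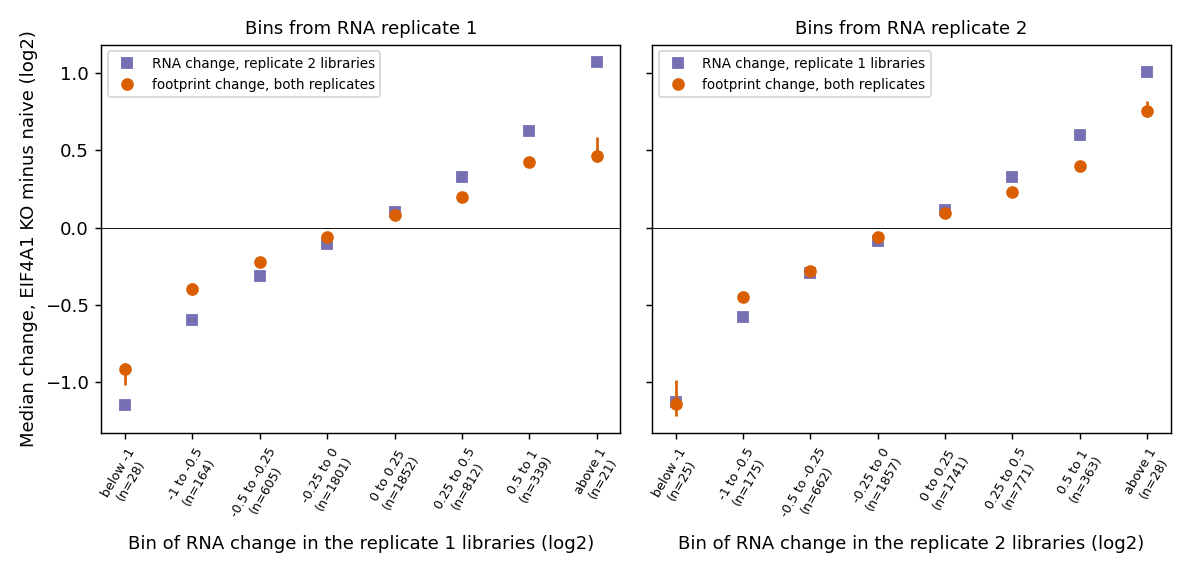
Median change of RNA (squares) and of footprints (circles), EIF4A1 KO minus naive in log2 (y axis), in bins of the RNA change of replicate 1 (left) or replicate 2 (right). Squares come from the RNA libraries that did not define the bins, and vertical lines span the medians of the 4 single-library footprint differences. In the bins from 0.25 to 1 and from -1 to -0.5, the circles lie closer to 0 than the squares in both panels.

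The same pair of lines gave a Spearman rho of -0.29 between the RNA change of replicate 1 and the efficiency change computed with RNA replicate 2, and -0.18 with the replicates exchanged (5622 transcripts). Computed from the same RNA libraries, the rho was -0.285. The RNA changes of the 2 replicates correlated at a rho of 0.90 and the footprint changes at 0.79, and these points share cell lines and kits.

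Efficiency changes were graded by the length deposited with each transcript. That length is read as the size of the counted coding region, and the files do not give its unit. It was 0 or below for 380 listed transcripts, which a plain size cannot be, so it served only to rank transcripts. The 5622 abundant transcripts were split by length into 5 bins of 1122 to 1128. Efficiency changed by a median of -0.088 in the shortest bin and 0.12 in the longest. Over the 16 combinations of single libraries the 2 medians ranged from -0.11 to -0.065 and from 0.090 to 0.14, so they did not overlap. In the shortest bin 251 of 1128 transcripts were called lower in efficiency and 54 higher. In the longest bin 92 of 1123 were called lower and 243 higher. Over all 5622 abundant transcripts, 892 (15.9%) were called lower and 654 (11.6%) higher.

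The gradient ran through both assays. RNA changed by a median of -0.080 in the shortest and 0.12 in the longest bin, and footprints by -0.15 and 0.25. Across transcripts, length correlated with the change of efficiency at a Spearman rho of 0.24, of RNA at 0.26 and of footprints at 0.41 (5622 points that share libraries and depth). It stood at both levels of abundance: the medians of efficiency in the shortest and longest bins were -0.090 and 0.11 below a mean log2 CPM of 6.08, and -0.086 and 0.13 above it. Changes of translation alone followed it, with 106 falls and 16 rises in the shortest bin and 15 falls and 113 rises in the longest. Over all 5622 abundant transcripts this class held 274 falls and 254 rises. Buffering took 9.04% of the shortest and 12.8% of the longest bin, and 14.6% to 15.2% between them. Depth moved with genotype in these footprint libraries, and its part in the gradient was not tested.

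**Figure D4:**
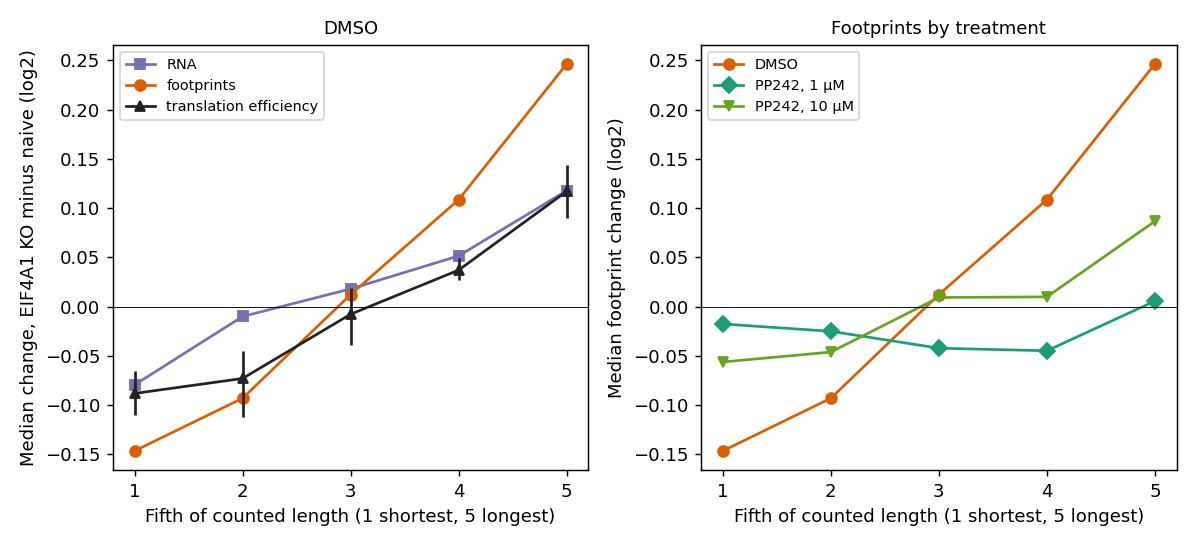
Left, median change of RNA, footprints and translation efficiency, EIF4A1 KO minus naive in log2 (y axis), by bin of the counted length (x axis), from the DMSO footprint libraries and the RNA libraries; vertical lines span the 16 combinations of single libraries for efficiency. Right, the footprint change in DMSO and after PP242. All 3 lines on the left rise with length, from -0.15 to 0.25 for footprints. After PP242 the line at 1 µM runs between -0.045 and 0.0055, and the line at 10 µM goes from -0.056 in the shortest to 0.087 in the longest bin.

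Footprint libraries made after PP242, an inhibitor of the mTOR kinase given for 30 min, took no part in forming the classes. Each genotype had 1 library at 1 µM and 1 at 10 µM, so these values carry no test. Most of the footprint difference of the translation-alone class was not seen in them. The 353 rises, at 0.48 in DMSO, had a median difference of 0.0032 at 1 µM and 0.10 at 10 µM, with 50.1% and 67.1% above 0. All transcripts tested, from which the classes were drawn, had medians of -0.016 and 0.031, with 46.9% and 52.5% above 0. The abundant ones had -0.024 and -0.0030, with 46.5% and 49.6% above 0. The 503 falls, at -0.63 in DMSO, stood at -0.012 and -0.090. The DMSO values are enlarged by the choice of members.

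Forwarded transcripts, chosen on RNA as well as on DMSO footprints, kept more of their difference. Classes chosen by different calls can shrink by different amounts in other libraries, and the part of this was not tested. Those with higher RNA, at 0.53 in DMSO, stood at 0.26 and 0.33 with PP242, and those with lower RNA, at -0.64 in DMSO, at -0.26 and -0.27. Intensified rises stood at 0.26 and 0.31 and intensified falls at -0.15 and -0.23. Buffered transcripts were chosen for efficiency against their RNA in DMSO, which by itself can favour a return toward the RNA in other libraries. Their medians lay on the side of their RNA. Those with higher RNA, at -0.24 in DMSO, stood at 0.096 and 0.037, with 61.3% and 54.4% above 0. Those with lower RNA, at 0.14 in DMSO, stood at -0.20 and -0.074, with 27.6% and 40% above 0. All transcripts tested had medians of -0.016 and 0.031, with 46.9% and 52.5% above 0. The abundant ones had -0.024 and -0.0030, with 46.5% and 49.6% above 0. At 10 µM the buffered transcripts with higher RNA were thus close to all transcripts tested. Of the overturned transcripts, the 194 with higher RNA stood at -0.019 and -0.10, on the side away from their RNA at both doses. The 91 with lower RNA stood at -0.063 and 0.051, on the side of their RNA at the lower dose only. Whether the genotype difference in a class depends on PP242 was not tested.

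Depth was matched at 1 µM, with 3990353 counts in naive and 3982482 in EIF4A1 KO cells. At 10 µM it was 2686665 in naive and 6420287 in EIF4A1 KO cells, the reverse of the order in DMSO. The correlation of the footprint difference with length, 0.41 in DMSO, was 0.097 over the mean of both doses. By length, the difference ran from -0.018 in the shortest to 0.0055 in the longest bin at 1 µM, and from -0.056 to 0.087 at 10 µM. The slope of the footprint difference on the RNA change was 54.7% in these libraries.

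**Figure D5:**
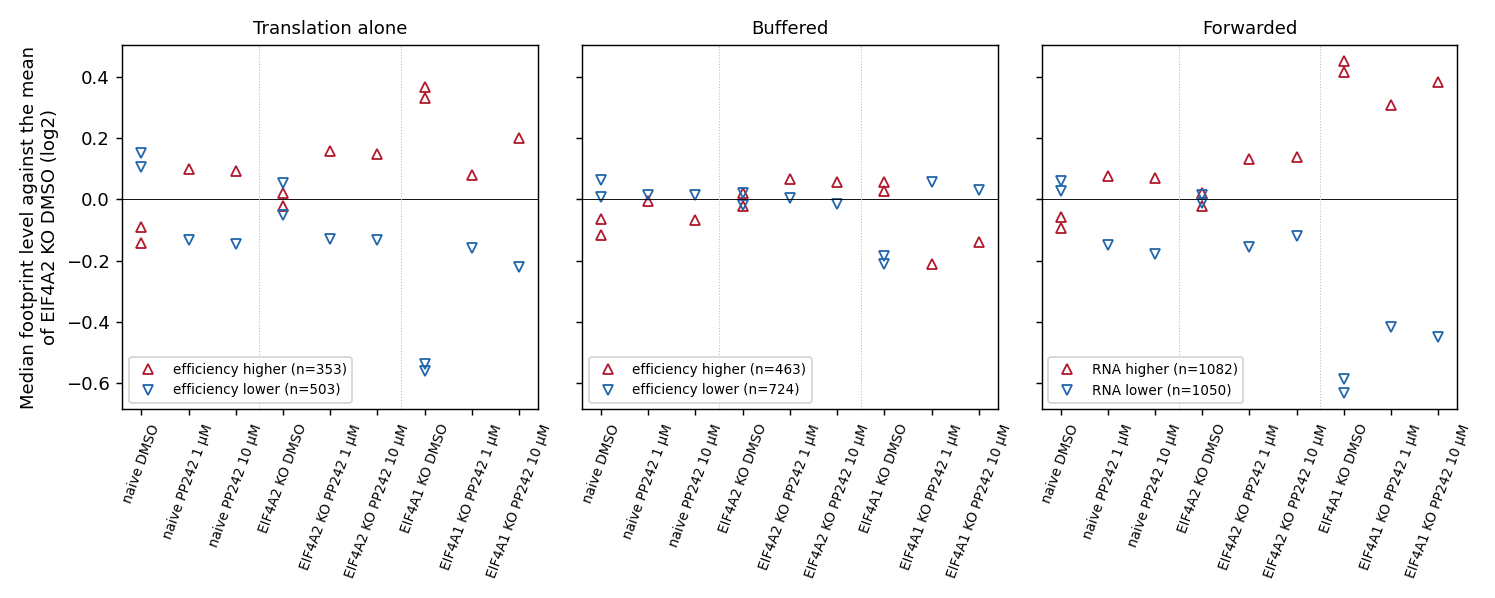
Median footprint level of each class in every ribosome profiling library (x axis), in log2 against the mean of the 2 EIF4A2 KO DMSO libraries (y axis). Triangles up and down are the rising and falling members, and the classes were formed with the naive and EIF4A1 KO DMSO libraries. In the translation-alone panel the EIF4A1 KO DMSO libraries stand at 0.37 and 0.33 for rises and -0.56 and -0.54 for falls, and the PP242 libraries of all 3 genotypes stand between 0.081 and 0.20 and between -0.22 and -0.13.

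In EIF4A2 KO cells, whose libraries share none with the 8 compared here, PP242 was set against DMSO. The translation-alone rises had medians of 0.16 at 1 µM and 0.15 at 10 µM, with 77.3% and 81% of 353 above 0. The falls stood at -0.13 at both doses, with 37.4% and 35.8% of 503 above 0. Over all transcripts tested the medians were 0.024 and 0.022, with 52.4% and 52.2% above 0, and over the abundant ones 0.014 and 0.021, with 52.1% and 53.3% above 0. Forwarded transcripts, which carry no efficiency call, had values of like size: 0.13 and 0.14 with higher RNA (67.9% and 68.4% above 0), and -0.16 and -0.12 with lower RNA (31.9% and 33.5% above 0). Intensified rises stood at 0.29 and 0.24 and intensified falls at -0.37 and -0.26, and both buffered groups between -0.015 and 0.065. PP242 had 1 library per dose, so these values carry no test.

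Capture with the tagged proteins was read next, as pulldown over input in cells with SBP-eIF4A1 or with SBP-eIF4A2 (SBP is a streptavidin-binding peptide). With SBP-eIF4A1 and no siRNA, the translation-alone falls had median log2 enrichments of 0.41 and 0.44 in the 2 replicates, and the rises -0.89 and -0.94. Intensified falls stood at 0.48 and 0.51 and intensified rises at -0.86 and -0.96. Buffered transcripts with lower efficiency stood at 0.12 and 0.15, and those with higher efficiency at -0.50 and -0.56. Forwarded transcripts had the same order, with 0.18 and 0.25 for lower RNA and -0.61 and -0.63 for higher RNA. The order is thus not one of the efficiency classes alone. Abundant transcripts as a whole stood at -0.28 and -0.26, and all tested at 0.012 in replicate 2 and within rounding of 0 in replicate 1.

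With SBP-eIF4A2 the translation-alone falls stood at 0.078 and 0.049 and the rises at -0.88 and -0.86. The references there were -0.44 and -0.42 for the abundant transcripts and -0.011 in both replicates for all tested. Whether the 2 proteins differ was not tested.

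After control siRNA, the SBP-eIF4A1 pulldown gave another order for some classes. The translation-alone falls stood at -0.25 and -0.27 and the rises at -0.36 and -0.21, so the falls were above the rises in replicate 1 and below them in replicate 2. Intensified falls, at -0.54 and -0.65, were below the intensified rises, at -0.089 and 0.16, in both. Forwarded transcripts with lower RNA, at -0.41 and -0.44, were below those with higher RNA, at -0.23 and -0.15. Buffered transcripts kept the order, with -0.15 and -0.12 for lower and -0.41 and -0.34 for higher efficiency. The references were -0.49 and -0.45 for the abundant transcripts and 0.032 and 0.072 for all tested, so whether a class lies above or below its reference turns on which is taken. Length differed between these groups: the median was 229 in the translation-alone falls and 718 in the rises, and 209 and 1060 in the intensified falls and rises. It was 204 in all transcripts tested and 462 in the abundant ones. Its part in the enrichments was not tested, and no pulldown from cells without a tagged protein was analysed here.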

How the data were processed

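Ribosome profiling used nuclease digestion, ribosome pelleting and circularized cDNA, and RNA-seq a stranded mRNA kit, per the labels' protocols. The submitters' processing notes name CASAVA 1.8, STAR 2.7.0a and hg38. The counting tool and annotation are not given in the sources used here. The deposited files hold raw counts per transcript and, as the other measure the authors deposited, a length, which was used only to rank transcripts.

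Of 94734 transcripts with counts, 26549 had counts equal to another's. Equal rows were collapsed to 77343. Rows were then taken by total count, and dropped where log2 CPM (pseudocount 0.5) correlated at 0.9 or more with a kept row within 10 rows. This is the fallback of the planned choice of 1 transcript per gene. The planned gene lists, cell markers and naming of members by class need gene names and were not run. Instead, 4 IDs are given: among transcripts of changed class with mean log2 CPM of at least 5 and genotypes apart in all library combinations, the 2 largest efficiency changes in each direction. Single class examples without ID lead by the same rule, or by abundance, which was chosen after the values were seen.

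edgeR 4.0.16 in R 4.3.3 fitted 8 libraries with 1 mean per group (TMM, filterByExpr with minimum count 10, glmQLFit, two-sided glmQLFTest, Benjamini-Hochberg). Standard errors are the absolute change divided by the root of F. The spread was pooled over both assays and largely shared across transcripts (median total degrees of freedom 90.9). Among abundant transcripts, replicate differences had an SD of 0.14 in naive and 0.18 in KO footprints. In RNA it was 0.090 and 0.074. The script was tested on simulated data. Alternatives included DESeq2 1.42.0. The classes and members were chosen with earlier results of these data known.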

Additional observations from a re-analysis of the deposited data

How the results depend on the processing

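Testing all distinct transcripts gave 7223 efficiency, 25947 RNA and 13838 footprint calls, with 2611 in translation alone and 3486 buffered, since more rows per locus were tested. RNA calls were 5393 with a mean of at least 50 counts in each assay (fewer transcripts tested), 5471 with the DESeq2 Wald test and 4209 with thinned RNA counts. The buffered class held 785 with DESeq2, 692 with thinned RNA and 681 at an adjusted p under 0.01, where translation alone held 529. Thinned RNA gave 966 falls of efficiency, 374 buffered with higher RNA, 474 buffered in full, 150 overturned, and 40 intensified rises and 96 falls. DESeq2 gave 457 buffered with higher RNA, 173 overturned, and 72 intensified rises and 105 falls. At an adjusted p under 0.01, translation alone held 206 rises and 323 falls, buffering 249 with lower and 432 with higher RNA (498 in full, 42 in part, 141 overturned), and intensification 51 rises and 94 falls. With DESeq2, 1814 efficiency changes were called, 1805 of them among the 2414, and 758 were in translation alone against 785 buffered. The footprint share of the RNA change was 54.7% with PP242 libraries, an alternative chosen after seeing the data; the cause was not tested.

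Leaving out each library gave 1512 to 2458 efficiency, 6566 to 9492 RNA and 2731 to 4687 footprint calls, 471 to 970 in translation alone, and 823 to 1163 buffered. Leaving out each footprint library gave a footprint share of 70.9% to 73.2%, and taking 1 RNA replicate or the other as the reference 67.2% and 76.9%. The lone library of a group is then assumed to vary like the others. The efficiency changes of the 4 transcripts given by ID kept their direction in each of these fits. They were picked for large changes set apart in these same libraries, so the choice all but fixed this outcome.

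The groups share replicate numbers that the labels do not tie to a culture or day. Same-numbered deviations correlated at -0.13 to 0.15. With a replicate block over both assays 2327 efficiency changes were called (855 in translation alone, 1128 buffered), and with a block within assay 2025 (750 and 990). Crossing the numbers of the EIF4A1 KO RNA libraries, chosen after seeing the data, gave 2488.

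Depth limits the footprint side: efficiency was called for 1.15% of transcripts under a mean log2 CPM of 1 and for 41.3% at 7 or more. Among efficiency calls, 155 had a group under 10 counts in both libraries, 108 of them falls and 47 rises.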

Other observations

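Naive cells given PP242 were also set beside EIF4A2 KO cells given PP242, in libraries that formed none of the classes. The footprint difference, EIF4A2 KO minus naive, had medians of 0.062 and 0.074 at 1 and 10 µM for the translation-alone rises and -0.052 and -0.030 for the falls. For the buffered transcripts with lower RNA it was 0.066 and 0.082, and for those with higher RNA -0.016 and -0.031. All transcripts tested stood at 0 and 0.040, and the abundant ones at -0.0037 and 0.016. The EIF4A1 KO and EIF4A2 KO values share the naive PP242 libraries and are given only side by side.

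ENST00000325680.12 stood at 80.1 and 97.5 CPM of footprints in naive cells at 1 and 10 µM PP242, and at 83.0 and 90.9 in EIF4A1 KO cells, scaled over all 31 libraries. On that scale its DMSO values were 35.4 and 31.4 in naive and 100 and 86.5 in EIF4A1 KO cells. The EIF4A2 KO libraries stood at 44.3 and 39.2 in DMSO and 89.0 and 100 with PP242. The other 3 transcripts given by ID had the same order of naive and EIF4A1 KO cells with PP242 as in DMSO. At 1 and 10 µM, ENST00000397238.7 stood at 34.6 and 37.0 CPM in naive and 20.3 and 17.5 in EIF4A1 KO cells. ENST00000234111.9 stood at 143 and 150 CPM in naive and 75.2 and 76.9 in EIF4A1 KO cells. ENST00000323963.10 stood at 66.7 and 106 CPM in naive and 433 at both doses in EIF4A1 KO cells.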
